A study of Mus musculus with 6 samples.

Results

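Protein phosphatase 1 (PP1) is a serine/threonine phosphatase, and 9 of its genes were followed in the hippocampus of mice with and without Prmt9. Of the 35865 genes with a matched transcript, the 9 were taken by symbol and comprise the catalytic subunits Ppp1ca, Ppp1cb and Ppp1cc, the inhibitors Ppp1r1a, Ppp1r1b, Ppp1r1c and Ppp1r2, and the scaffolds Ppp1r9a and Ppp1r9b. They have 55 annotated transcripts of 116622. Hippocampus RNA came from female C57BL/6J mice of 2 weeks, 3 WT and 3 Prmt9 KO. The KO mice lack a floxed exon of Prmt9 in the whole body after CMV-Cre recombination, and the WT mice were littermates of the same sex. Prmt9 encodes an arginine methyltransferase that modifies the splicing factor SF3B2, so the comparison asks which RNAs and which splice forms depend on it.

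A PP1 holoenzyme pairs 1 of several nearly identical catalytic subunits with a regulatory subunit that sets where it acts. Inhibitor-1 (Ppp1r1a) and its close relative DARPP-32 (Ppp1r1b) block the catalytic site once protein kinase A has phosphorylated a threonine in them, and calcineurin removes that phosphate. Neurabin (Ppp1r9a) and spinophilin (Ppp1r9b) bind actin and hold PP1 in dendritic spines. In the hippocampus PP1 opposes the kinases of synaptic potentiation.

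The sequence that separates the Ppp1r1a transcripts is shown first, because the genotypes did not overlap in the share that carries it. The same held for 10.6% of all annotated splicing events tested, among them a segment of Ppp1cb. Ppp1r1a lies on the reverse strand at chr15:103530279-103538003 of GRCm38 and has 2 annotated transcripts. Ppp1r1a-201 has 7 exons and codes for inhibitor-1, and Ppp1r1a-202 skips exon 2, a coding exon of 61 bases at chr15:103534350-103534410. A primer pair of the study, reading from the start codon into exon 3, gives a product of 183 bases from the first and of 122 bases from the second. In the longer product the skipped exon is in capitals, and in the shorter product the capitals mark a stop codon that the same reading frame meets.
Ppp1r1a product with the exon: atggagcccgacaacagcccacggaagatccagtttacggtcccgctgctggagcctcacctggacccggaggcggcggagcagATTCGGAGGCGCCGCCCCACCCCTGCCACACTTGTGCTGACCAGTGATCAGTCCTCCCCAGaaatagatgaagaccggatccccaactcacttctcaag
Ppp1r1a product without the exon: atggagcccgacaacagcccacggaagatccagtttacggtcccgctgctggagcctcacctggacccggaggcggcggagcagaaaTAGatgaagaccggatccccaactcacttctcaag

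The exon is 1 base longer than a whole number of codons. Counted from the start codon as 1, the full-length frame has 171 codons, and without the exon a stop stands at codon 30. Codons 9 to 12, which code for the motif that docks on PP1, lie in exon 1 and are in both transcripts. The annotation gives Ppp1r1a-202 no coding sequence. Exon 2 of Ppp1r1b, at chr11:98350569-98350629, has the same length, and 41 of the 61 bases are identical at the same position. Both exons hold the codon of the threonine that protein kinase A phosphorylates, codon 35 in Ppp1r1a and codon 34 in Ppp1r1b, which is in capitals here.
Ppp1r1a exon 2: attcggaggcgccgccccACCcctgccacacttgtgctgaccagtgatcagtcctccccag
Ppp1r1b exon 2: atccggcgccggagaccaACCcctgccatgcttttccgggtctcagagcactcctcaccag

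A mouse of each genotype, both numbered 1, stood apart from the other 4 and set much of the spread given here. They separated along the leading principal component of gene expression, which held 67.4% of the variance. The estimated counts summed to between 194098391 and 286771677 per mouse. Summed TPM of the 4 oligodendrocyte markers was 1831 in WT 1 and 936 in KO 1, against 7034 to 10118 in the other mice. The 4 choroid plexus markers summed to 7254 TPM in WT 1 against 606 to 3328 elsewhere, but Ttr alone gave 7157 TPM of the sum in WT 1. Folr1 and Aqp1 were also highest in WT 1, at 74.5 and 15.5 TPM. Kl was not, at 7.44 TPM in WT 1 and 3.46 to 15.5 TPM elsewhere. The 6 markers of hippocampal and excitatory neurons summed to 1028 and 1071 TPM in the mice numbered 1 and to 1246 to 1345 TPM in the others. Slc17a7 alone gave 736 and 758 TPM of the sums in WT 1 and KO 1. Prox1, Zbtb20, Wfs1 and Slc17a7 were lower in both of these mice than in the others. The remaining markers differed. Spink8 was highest in WT 1, at 66.2 TPM against 41.3 to 55.5 TPM elsewhere. Neurod6 was highest in KO 1, at 148 TPM against 114 to 132 TPM elsewhere. WT 1 also had 37.4% of its transcripts listed at 0, against 22.8% to 24.8% in the other mice, and a median difference between transcript length and effective length of 191 bases, against 166 to 175 bases. The part of these markers and library measures in the values of the PP1 genes was not tested. In whole tissue, fewer cells of a type and less RNA per cell cannot be told apart. Prmt9 itself, the targeted gene, had 11.8, 15.2 and 14.96 TPM in WT and 3.93, 4.61 and 4.67 TPM in KO mice, and the groups did not overlap. Its log2 fold change was −1.71 with a standard error of 0.10, and its adjusted p of 0.0327 in edgeR's quasi-likelihood test stayed above the limit of 0.01.

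The share of Ppp1r1a carrying exon 2 was lower in every KO mouse than in any WT mouse. Groups did not overlap in 10.6% of all annotated splicing events tested. The share with exon 2 was 56.8%, 52.8% and 53.5% of Ppp1r1a TPM in WT mice 1, 2 and 3. In KO mice 1, 2 and 3 it was 47.5%, 45.4% and 42.7%. The means were 54.4% ± 2.14 (SD, n = 3) and 45.2% ± 2.42 (SD, n = 3), a difference of −9.16 percentage points. A two-sided exact permutation test over the 6 mice gave p = 0.1, the smallest value that this design allows. The study chose this exon on these same mice, so the share is not independent evidence of its direction.

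Mice of the same number differed by −9.30, −7.36 and −10.8 percentage points. The 2 mice that stood apart on the principal component therefore showed a difference between those of the other pairs. From estimated counts instead of TPM, the share was 69.9%, 66.1% and 66.7% in WT and 61.3%, 59.2% and 56.4% in KO mice. These shares are higher because the transcript with the exon is longer, and the groups again did not overlap. The counts behind them ranged from 11000 to 23233 for the form with the exon and from 5708 to 10477 for the form without it.

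Taken singly, neither Ppp1r1a transcript separated the genotypes. The form with exon 2 was at 160, 81.0 and 81.8 TPM in WT and at 111, 72.4 and 69.4 TPM in KO mice. The form without it was at 121, 72.5 and 71.1 TPM in WT and at 122.6, 87.1 and 93.2 TPM in KO mice. Both forms were highest in the mice numbered 1 of their genotype. Between mice 2 and 3 of each genotype, the form with the exon was lower in KO and the form without it was higher. The ratio of the form without to the form with the exon was 0.761, 0.896 and 0.869 in WT and 1.11, 1.20 and 1.34 in KO mice, so that by TPM the form without the exon was the more abundant one in all 3 KO mice and in none of the WT mice. By estimated counts the form with the exon was the more abundant one in all 6 mice.

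**Figure D1:**
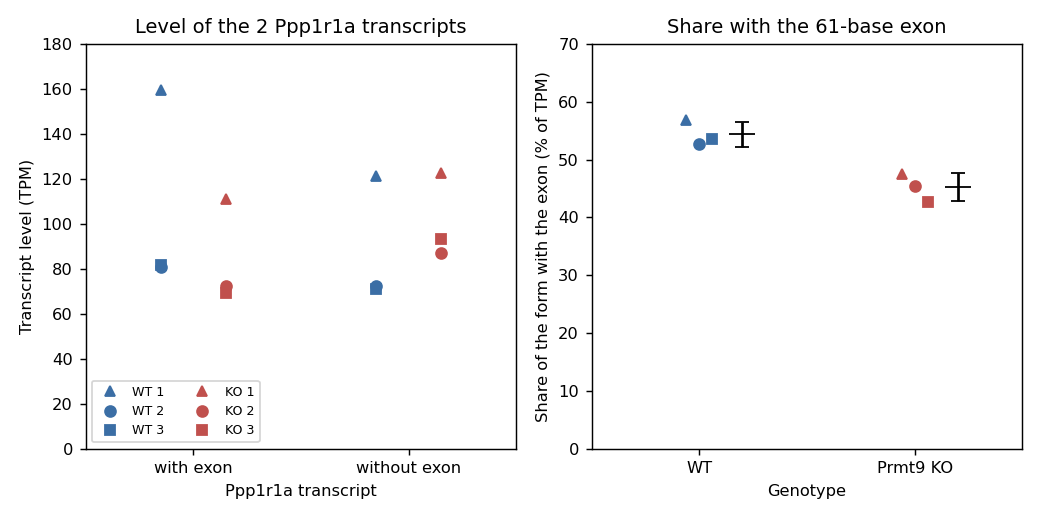
Left, the level of the 2 Ppp1r1a transcripts in each mouse (TPM, linear axis from 0). Right, the percentage of Ppp1r1a TPM in the transcript with the 61-base exon, with the mean and SD of 3 mice in black. The levels overlap between genotypes, whereas the shares lie at 52.8% or above in WT and at 47.5% or below in KO mice.

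Across all annotated exon-skipping, alternative splice site and intron-retention events, limma gave this exon an unadjusted p of 0.0168 and an adjusted p of 1. None of the 23515 events tested reached the adjusted p of 0.01 with a change of 5 percentage points (0%), and 748 had an unadjusted p under 0.05 (3.18%). In the test of transcript usage, which asks whether the transcripts of a gene change by unequal amounts, Ppp1r1a had an adjusted p of 1 (edgeR's diffSpliceDGE). The 2 transcripts also differ outside exon 2, with 415 more bases at the 3′ end and 9 more at the 5′ end of Ppp1r1a-201. Their estimated levels therefore draw on reads from these ends as well as from the exon and its junctions.

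The total RNA of Ppp1r1a did not separate the genotypes either. Gene TPM was 281, 154 and 153 in WT and 233, 159 and 163 in KO mice. The mice numbered 1 were at 183% and 145% of the mean of the other 2 mice of their genotype. The log2 fold change was −0.27 with a standard error of 0.40 (edgeR, adjusted p = 0.9999). It became 0.28 without WT 1 and 0.0043 without both mice numbered 1. The 3 genes whose log2 CPM followed that of Ppp1r1a most closely over the 6 mice were Gm10275, a predicted gene, and Rps7 and Rpl35, which encode ribosomal proteins. Their Pearson r was 0.9999, 0.9999 and 0.9998, given as a description, since all of them share the high values of the mice numbered 1. Rps7 stood at 446 and 273 CPM in WT 1 and KO 1 and between 139 and 141 CPM in the other mice.

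DARPP-32 RNA (Ppp1r1b), best known from striatal medium spiny neurons, was present at a lower level. It had 40.6, 43.1 and 49.9 TPM in WT and 22.9, 48.5 and 57.1 TPM in KO mice, and the groups overlapped. KO 1 was the low mouse, at 43.4% of the mean of KO 2 and KO 3. The 5 striatal markers summed to between 23.3 and 29.7 TPM over all mice, with the highest sum in KO 1. Rgs9 alone gave 13.4 to 16.5 TPM. Gpr6 was at 4.57 TPM in KO 1 and 4.47 TPM in WT 1, against 1.10 to 1.80 TPM elsewhere. The part of these markers in the Ppp1r1b values was not tested. The log2 fold change of Ppp1r1b was −0.18 with a standard error of 0.28 (edgeR, adjusted p = 0.9999), and it was 0.18 without both mice numbered 1. In mice 2 and 3, the KO mean was 13.5% above the WT mean.

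The main Ppp1r1b transcripts kept like shares in both genotypes. Ppp1r1b-201, which codes for DARPP-32, held 46.4% ± 4.46 (SD, n = 3) of the gene's TPM in WT and 44.1% ± 2.95 (SD, n = 3) in KO mice. A shorter transcript annotated as a retained intron, Ppp1r1b-202, held 42.9% ± 1.03 and 43.8% ± 1.38 (SD, n = 3 each). A minor transcript, Ppp1r1b-204, was named after its values were seen. It is read from an alternative first exon and is annotated as coding. It was listed at 0 estimated counts in all 3 WT mice and at 56.2, 36.8 and 79.3 in KO mice, or 0.364, 0.201 and 0.485 TPM. A transcript that shares its first exon, Ppp1r1b-206, had 215, 89.8 and 273 estimated counts in WT and 39.1, 314 and 313 in KO mice.

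Ppp1r1b had the lowest p of the 9 genes in the test of transcript usage, 0.000289 unadjusted and 0.0871 after adjustment over 13560 genes (edgeR's diffSpliceDGE). Ppp1r1b-204, listed at 0 in WT mice, passed the filter on low counts only through the KO mice. The test therefore gives no independent support for a difference in that transcript. None of the 9 genes was called, where 22 of all genes tested were (0.162%), and 12 with the mouse number as a block. Ppp1r1b alone of the 9 had an unadjusted p under 0.05, beside 1.67% of all genes tested. A count of 0 from kallisto can come from the division of shared reads between transcripts, so no fold change is given for Ppp1r1b-204. With the block the adjusted p of Ppp1r1b was 0.897. Over the alternatives it ranged from 0.0331 without both mice numbered 1 to 1 when only transcripts with at least 10 counts in every mouse were kept, a rule that removes Ppp1r1b-204.

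The third relative, Ppp1r1c, was barely detected. It had 0.0727, 0.267 and 0.274 TPM in WT and 0.196, 0.204 and 0.273 TPM in KO mice. Ppp1r2, inhibitor-2, binds the catalytic subunit without needing phosphorylation by protein kinase A. It had 41.3, 62.2 and 61.3 TPM in WT and 45.7, 62.5 and 58.3 TPM in KO mice. Again the mice numbered 1 were low, at 66.9% and 75.6% of the other mice of their genotype. The 2 transcripts of Ppp1r2 held nearly equal parts of its TPM, 52.0% ± 1.15 in WT and 53.7% ± 2.30 in KO mice for the shorter one, of 958 bases (SD, n = 3 each). Log2 fold changes were 0.05 (standard error 0.47) for Ppp1r1c and −0.08 (standard error 0.13) for Ppp1r2.

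**Figure D2:**
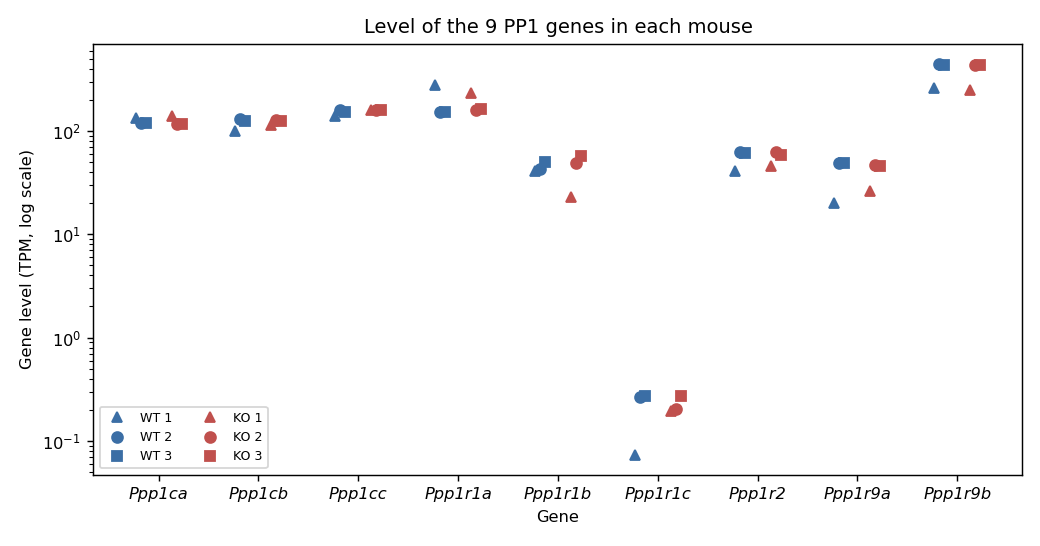
Gene level of the 9 PP1 genes in each of the 6 mice (TPM, log axis), with the mouse number given by the shape. WT and KO points overlap for all 9 genes, and Ppp1r1c lies below 0.3 TPM in every mouse.

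The catalytic subunits varied least between mice. Ppp1ca (PP1 alpha) had 133, 119 and 119 TPM in WT and 138, 117 and 116 TPM in KO mice. Ppp1cb (PP1 beta) had 98.9, 130.2 and 126 TPM in WT and 115, 126 and 125 TPM in KO mice. Ppp1cc (PP1 gamma) had 141, 161 and 152 TPM in WT and 158, 158 and 161 TPM in KO mice. Their sum lay between 373 and 412 TPM in all 6 mice, and Ppp1cc held 38.5% ± 0.762 of it in WT and 39.3% ± 0.835 in KO mice (SD, n = 3 each). The log2 fold changes were −0.08, −0.11 and 0.04 for Ppp1ca, Ppp1cb and Ppp1cc, with standard errors of 0.20, 0.09 and 0.11 (edgeR, adjusted p = 0.9999 for each). The fold change of Ppp1cb turned to 0.06 on the TPM scale with limma.

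Gene totals hid large differences in the share of TPM held by transcripts annotated as protein-coding. Transcripts annotated as protein-coding made up 83.0% of Ppp1ca TPM in WT, 51.1% of Ppp1cc and 27.9% of Ppp1cb, with SDs of 0.813, 0.155 and 4.66 over 3 mice. In KO mice these shares were 83.2% ± 0.383, 53.4% ± 2.94 and 23.9% ± 1.14 (SD, n = 3 each). Counting coding transcripts alone, Ppp1cb was the lowest of the catalytic subunits in every mouse, at 28.5 to 34.9 TPM, against 72.1 to 89.6 TPM for Ppp1cc and 96.4 to 115 TPM for Ppp1ca. Ppp1cc then held 33.4%, 38.3% and 37.5% of the catalytic coding TPM in WT and 38.3%, 38.8% and 40.4% in KO mice. The groups did not overlap in this share, but WT 2 and KO 1 were equal to the digits given.

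Most of the other Ppp1cb TPM came from 2 transcripts annotated for nonsense-mediated decay, Ppp1cb-205 and Ppp1cb-203. Ppp1cb-205 is short, with 861 bases, and held 36.3% of the gene's TPM but few of its counts in WT, between 8.45% and 11.6%. In the last exon of the coding transcript Ppp1cb-201, beyond its coding sequence, Ppp1cb-205 removes 1140 bases at chr5:32491190-32492329 as an intron. Ppp1cb-201, which keeps those bases, held 41.7%, 45.9% and 43.0% of the TPM of both transcripts in WT and 37.6%, 41.1% and 39.7% in KO mice. The groups did not overlap, but WT 1 and KO 2 were within 1 percentage point, and limma gave an unadjusted p of 0.173. The 2 transcripts, of 5962 and 861 bases, also differ outside this segment. Their estimated levels therefore draw on reads from other parts as well. The difference was −4.07 percentage points from TPM and −2.17 from estimated counts.

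For Ppp1cc, the choice between the gamma1 and gamma2 isoforms was read from an 864-base segment at chr5:122174116-122174979. Ppp1cc-202 keeps it and codes for gamma1, the form of brain, and Ppp1cc-201 splices it out and codes for gamma2, the form enriched in testis. Ppp1cc-202 had 69.2, 80.4 and 76.5 TPM in WT and 88.1, 79.3 and 83.1 TPM in KO mice. Ppp1cc-201 was listed at 0.0015 TPM in WT 1 and at 0 in the other mice. Over all annotated transcripts that keep or remove the segment, it was kept in 78.3%, 83.2% and 85.9% of TPM in WT and in 85.5%, 84.6% and 85.6% in KO mice, and the groups overlapped. Most of the TPM without the segment came from Ppp1cc-209, a transcript of 557 bases annotated for nonsense-mediated decay, at 14.8 to 22.2 TPM. Ppp1cc-210, a short transcript annotated as coding that also lacks the segment, had 1.15 to 2.89 TPM. A retrocopy, Ppp1ccb on chromosome 7, shares 99.0% of its stretches of 31 bases with Ppp1cc. The division of reads between them is uncertain, and so is whether Ppp1ccb itself is expressed. It was listed at 54.3, 57.3 and 58.2 TPM in WT and 49.6, 51.5 and 48.0 TPM in KO mice. These groups did not overlap, as in 6.67% of all genes tested. Its log2 fold change was −0.23 with a standard error of 0.12 (edgeR, adjusted p = 0.9999).

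Spinophilin was the most abundant PP1 gene in 5 of the 6 mice. Ppp1r9b had 258, 449 and 437 TPM in WT and 251, 432 and 439 TPM in KO mice. Ppp1r9a, neurabin, had 20.2, 49.0 and 48.5 TPM in WT and 26.3, 46.7 and 46.1 TPM in KO mice. In both genes the mice numbered 1 were far below the others, at 58.3% and 57.7% for Ppp1r9b and at 41.4% and 56.7% for Ppp1r9a. Despite this, the ratio of Ppp1r9b to Ppp1r9a TPM stayed between 9.0 and 9.55 in 5 mice and was 12.8 in WT 1. Log2 fold changes were −0.12 (standard error 0.23) for Ppp1r9b and −0.02 (standard error 0.30) for Ppp1r9a. The direction for Ppp1r9a was not stable, as it was positive in 7 of the 14 alternative fits.

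**Figure D3:**
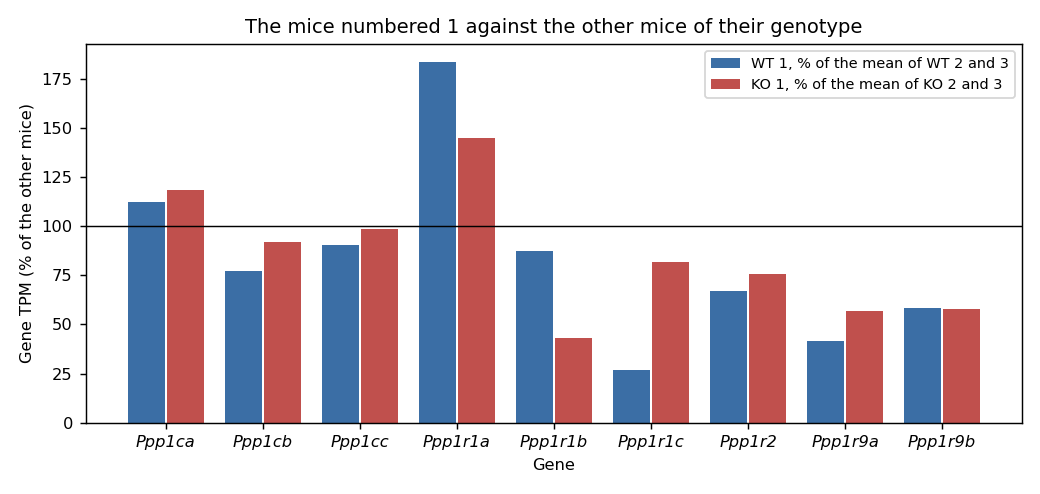
Gene TPM of the mouse numbered 1 of each genotype as a percentage of the mean of mice 2 and 3 of that genotype (linear axis from 0, line at 100%). Both bars lie above 100% for Ppp1r1a and Ppp1ca and below it for the other 7 genes, with Ppp1r9a and Ppp1r9b under 60% in both mice.

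Another transcript of the spinophilin gene is annotated from a downstream start, and its use was read from transcript estimates alone. Ppp1r9b-202 begins after the first exon of Ppp1r9b-201 and held 20.4%, 13.8% and 24.1% of the gene's TPM in WT and 35.5%, 22.1% and 21.3% in KO mice. The means were 19.4% ± 5.22 and 26.3% ± 7.99 (SD, n = 3 each), and the groups overlapped, with KO 1 the highest mouse. Of neurabin, Ppp1r9a-201 held 80.9% ± 0.349 in WT and 82.2% ± 4.44 in KO mice (SD, n = 3 each). It includes a microexon of 24 bases, a whole number of codons, at chr6:5157004-5157027, shown because it is the shortest alternative exon among the 9 genes.
Ppp1r9a microexon: AGCCTGGATATGATAGATGACGAG

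Of the TPM of the 5 neurabin transcripts that include or skip it, the forms with this microexon held 90.1%, 90.4% and 90.8% in WT and in 93.1%, 89.0% and 89.7% in KO mice. The genotypes overlapped and differed by 0.15 percentage points. The other 5 annotated events of Ppp1r9a that were tested lay among minor transcripts, with 1.34 to 5.39 TPM behind each, and their groups overlapped.

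Among all 13 annotated events of the 9 genes that passed the limits on expression and PSI, the groups stood apart in 2, the Ppp1r1a exon and the 1140-base Ppp1cb segment. Of all events tested, 10.6% had groups that did not overlap. The 4 Ppp1cc events changed by −0.99 to 2.79 percentage points, and the 145-base exon of Ppp1cb was included in 0.08% to 8.43% of TPM, lowest in WT 1. By transcript, 18 of the 55 passed the limits of 5% of the gene's TPM and 1 TPM. In 2 of them, both of Ppp1r1a, the shares of the groups did not overlap, beside 9.84% of all transcripts. Since the 2 shares of Ppp1r1a sum to 100%, they are 1 observation.

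**Figure D4:**
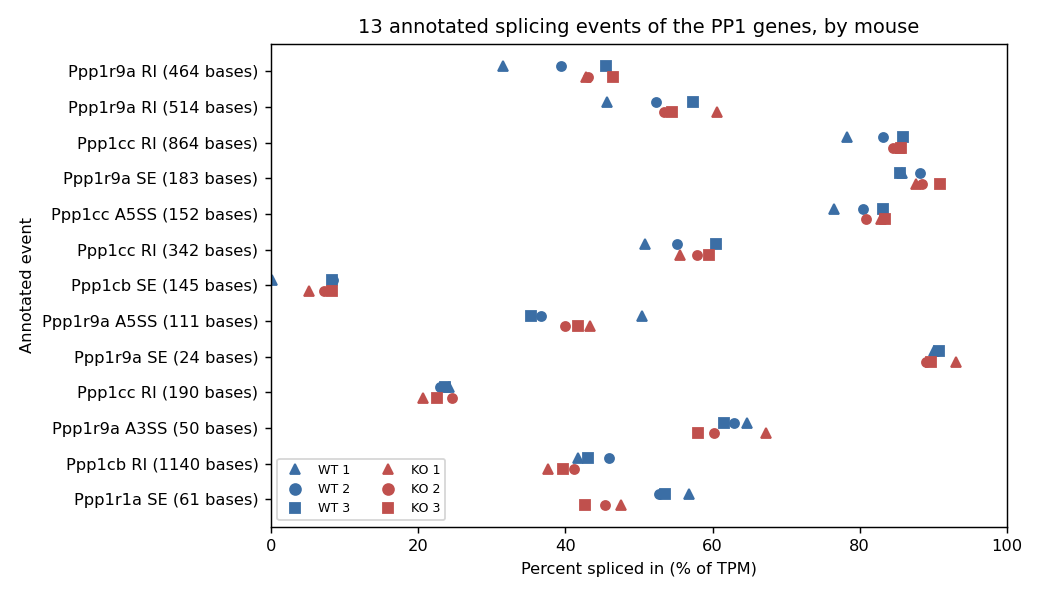
Percent spliced in of the 13 annotated events in each mouse (linear axis, 0 to 100% of the TPM of the transcripts that include or exclude the segment; SE, skipped exon; RI, retained intron; A5SS and A3SS, alternative 5′ and 3′ splice sites), ordered by the KO minus WT difference from the lowest, at the bottom. The Ppp1r1a exon, at −9.16 percentage points, is the lowest, and the blue WT and red KO points of the other events overlap except in the 1140-base Ppp1cb segment.

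By gene level, none of the 9 genes was called at an adjusted p of 0.01 with a fold change of 1.5, as was none of the 20315 genes tested (0%). In edgeR 252 genes had an unadjusted p under 0.05 (1.24%), none of them among the 9. The DESeq2 Wald test called 2 genes, Prmt9 and Gm3373, the latter named after its result was seen. The TPM of the groups overlapped for all 9 genes, while 6.67% of the genes tested had groups that did not overlap. The median log2 fold change of the 9 was −0.08, beside −0.01 for all genes tested.

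By gene TPM over all transcripts, the order of the levels was similar in both genotypes. Over all 6 mice Ppp1r9b ranged from 251 to 449 TPM and overlapped Ppp1r1a, which ranged from 153 to 281 TPM, and Ppp1r1a overlapped Ppp1cc. Ppp1cc was above Ppp1ca and Ppp1cb in every mouse, and these last 2 exchanged places, with Ppp1ca the higher only in the mice numbered 1. Ppp1r2 ranked sixth in every mouse by TPM, followed by Ppp1r1b and Ppp1r9a, whose ranges overlapped. Ppp1r1c was the lowest in every mouse. Counting the TPM of coding transcripts alone, Ppp1ca was instead above Ppp1cc in every mouse, and Ppp1cb was below both.

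Genes of the wider pathway did not separate the genotypes either. Of 36 other PP1 regulatory subunits, 34 were tested, none was called and none had an unadjusted p under 0.05, with a median log2 fold change of −0.03. The extremes were Ppp1r35 at −0.51 (standard error 0.44) and Ppp1r14a, a smooth muscle myosin phosphatase inhibitor, at −0.40 (standard error 0.85), and Ppp1r3g and Ppp1r3d, which target PP1 to glycogen, at 0.24 and 0.16 (standard errors 0.29 and 0.17). Ppp1r14a was lowest in the mice numbered 1, with 4.67, 29.9 and 22.1 TPM in WT and 2.77, 15.6 and 25.4 TPM in KO mice. Of 25 genes of the kinases, phosphatases and anchors around PP1, such as protein kinase A and calcineurin, all were tested and none was called or had an unadjusted p under 0.05. Their median was −0.0036. The lowest were the calcineurin subunits Ppp3ca at −0.15 (standard error 0.17) and Ppp3r1 at −0.13 (standard error 0.23), and the highest were Akap11 and Akap9, anchors of protein kinase A, both at 0.10 (standard errors 0.27 and 0.12). In transcript usage, none of the 32 other subunits or 23 signalling genes tested was called or had an unadjusted p under 0.05. Csnk1e, a casein kinase, had an adjusted p of 1 with all 6 mice but was called without WT 1 (0.000628), WT 2 (0.00676), WT 3 (0.0063) or KO 3 (7.35e-10), and not without KO 1 or KO 2 (1 in both; edgeR's diffSpliceDGE). Ppp2r1a, a scaffold of protein phosphatase 2A, had an adjusted p of 1 with all mice and of 0.000225 without both mice numbered 1.

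**Figure D5:**
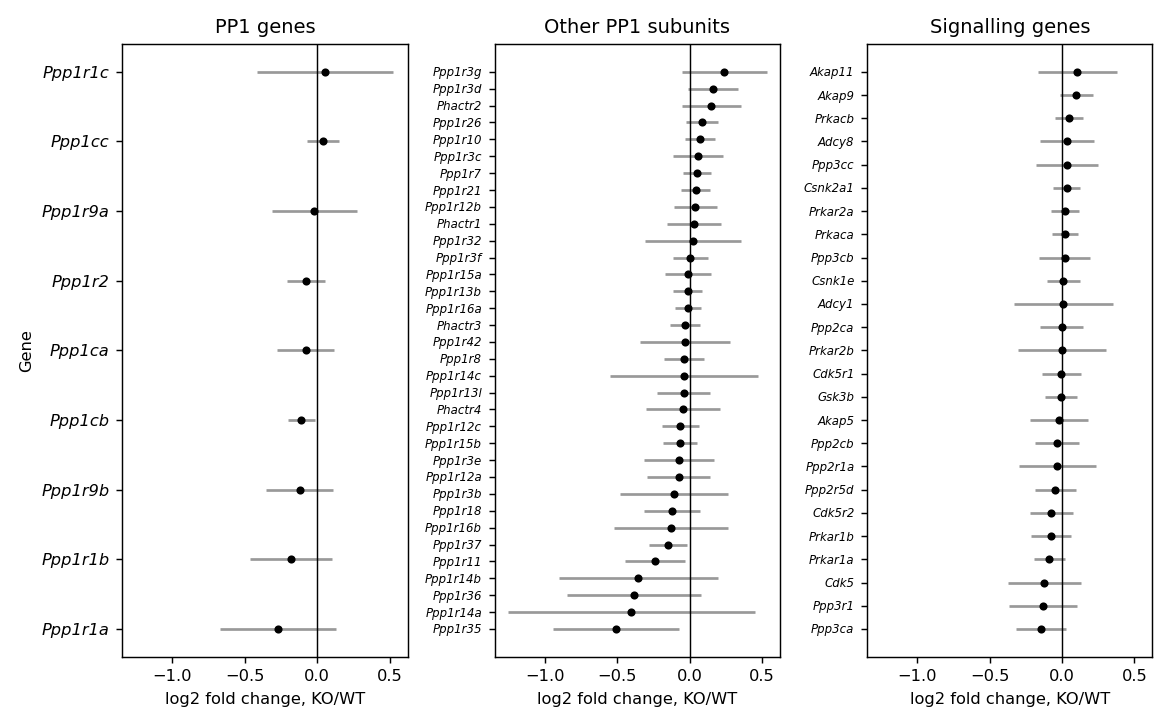
Log2 fold change of gene counts, Prmt9 KO over WT, with its standard error (edgeR, 3 mice per genotype) for the 9 PP1 genes, 34 other PP1 subunits and 25 signalling genes. The 9 genes lie between −0.27 and 0.05, and none of the genes plotted was called.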

How the data were processed

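Per the labels, polyadenylated hippocampus RNA was sequenced as stranded paired-end libraries. The authors deposited kallisto output, an estimated count and a TPM per annotated transcript, and a table of TPM per gene. The submitters' processing notes name kallisto 0.46.0 and STAR 2.7.1a. Of 118783 transcripts, 116622 matched GENCODE M21 by identifier and 2161 were left out. Estimated counts were rounded and summed per gene. Genes were tested with edgeR 4.0.16 (quasi-likelihood, TMM, filterByExpr; adjusted p below 0.01 and fold change above 1.5), transcript usage with diffSpliceDGE (Simes p per gene, adjusted p below 0.01), and annotated events with limma 3.58.1 on log2((including + 0.1)/(excluding + 0.1)) TPM. An event was tested if its transcripts reached 1 TPM in all mice and its mean PSI (percent spliced in) was 0.05 to 0.95 in at least 1 genotype. P-values were Benjamini-Hochberg adjusted over everything tested. DESeq2 1.42.0 was an alternative.

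The genes, transcripts and events named follow a written rule: all 9 genes and Prmt9, their transcripts with at least 5% of gene TPM and 1 TPM, their events past the limits, the 2 highest and 2 lowest genes of each other list, and the 3 genes most correlated with Ppp1r1a. Outside the rule, Ppp1r1b-204, Ppp1r1b-206, Ppp1cc-201, Ppp1cc-210, Ppp1ccb, Gm3373 and the genes named for calls of transcript usage were chosen after their values were seen. The members and lists were chosen with earlier results of these data known. The steps were tested on simulated data in which no mouse stood apart. Those runs do not show how the steps handle mice like those numbered 1. Same-numbered mice deviated together (r = 0.58, 0.44 and 0.41 for numbers 1, 2 and 3), although mice 2 and 3 correlated across numbers just as well (0.41 and 0.42). The tests were unpaired, and the fit with the number as a block was an alternative. Depth is the total estimated counts per mouse. Junction reads were not analysed here. Sequences come from the GENCODE M21 transcripts and the study's primer list.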

Additional observations from a re-analysis of the deposited data

How the results depend on the processing

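The change in the share of Ppp1r1a TPM with exon 2 kept its sign in all 10 alternatives. It was −7.91 to −10.3 percentage points with 1 mouse left out and −8.62 from estimated counts. Only the estimated counts could have changed the sign. Every WT share lay above every KO share, so leaving mice out could not reverse it. A denominator of all transcripts of the gene repeats the main value, as does the mean of paired differences. That mean (replicate block) was −9.16 points, with a smallest possible exact sign-flip p of 0.25. No gene was called in edgeR, and none with the block or with any mouse left out (0 to 0). DESeq2 called 2, and 1 gene, Prmt9, was called with a term for the mice numbered 1 and with both left out. No event was called under any alternative, the block included (0). Transcript usage was called in 12 genes with the block, 3 with voom weights (Arhgap33, Ehmt2 and Nrxn2), 1 with at least 10 counts in every mouse (Arhgap33), 6 to 139 with 1 mouse left out (139 without WT 1), 52 with the term and 230 without both mice numbered 1. None of these calls was a PP1 gene of the 9, and of the signalling genes Csnk1e was called in 4 of the fits with 1 mouse left out and Ppp2r1a without both mice numbered 1. Transcript shares stood apart in 2 to 9 of the 18 with 1 mouse left out, beside 15.3% to 29.6% of all transcripts. They did so in 4 without WT 1 (29.6% of all) and in 9 without WT 3 (18.1% of all). The term, the omission of both mice numbered 1 and the alternatives for transcript shares were chosen after seeing the data.

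Of 126 alternative log2 fold changes of the 9 genes, 23 changed sign and none was called. With 1 mouse left out, they ranged from −0.22 to 0.12 for Ppp1ca (0.12 without WT 1), −0.015 to 0.12 for Ppp1cc (negative without WT 3 or KO 1), −0.54 to 0.28 for Ppp1r1a (0.28 without WT 1), −0.39 to 0.090 for Ppp1r1b (0.090 without KO 1), −0.30 to 0.39 for Ppp1r1c (negative without WT 1 or KO 3), −0.16 to 0.031 for Ppp1r2 (0.031 without KO 1), −0.26 to 0.16 for Ppp1r9a (positive without WT 2, WT 3 or KO 1) and −0.24 to 0.088 for Ppp1r9b (0.088 without KO 1). Without both mice numbered 1 they were 0.0043 for Ppp1r1a, 0.18 for Ppp1r1b and −0.27 for Ppp1r1c. With limma on log2(TPM + 1) and on log2(TPM + 0.1) they were 0.0585 and 0.059 for Ppp1cb, 0.0262 and 0.0268 for Ppp1r2 and 0.0754 and 0.0793 for Ppp1r9a. Ppp1r9a was at 0.0155 with the block and at the same value with the term. Of 151 alternative event changes, 13 changed sign. In percentage points and with 1 mouse left out, the changes ranged from −0.13 to 4.69 for the 342-base Ppp1cc intron, −1.5 to 2.67 for the Ppp1cb exon, −3.9 to 0.75 for the Ppp1r9a A3SS, −1.9 to 5.65 for its A5SS and −1.12 to 0.96 for its microexon. Without both mice numbered 1, they were 0.29 for the 190-base Ppp1cc intron, −0.67 for the Ppp1cb exon, −0.87 for the 514-base Ppp1r9a intron and −1.27 for the microexon, and the A5SS was at −0.75 from counts. The cause of these changes was not tested.

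The smallest exact p that 3 mice per genotype allow for the Ppp1r1a share is 0.1, whatever the size of the difference. Shares rest on transcript estimates, without junction reads.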
